A study of Mus musculus with 6 samples.

Results

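The mitochondrial solute carriers of the SLC25 family were followed in 2 subsets of monocyte-derived macrophages sorted from MASH liver. Members were all rows of the expression table whose symbol starts with Slc25a, pseudogenes left out, which gave 39 of 16503 genes. CD11chiMinclehi macrophages (3 libraries) and CD11cloMinclelo macrophages (3 libraries) came from wild type (WT) mice fed CDA-HFD, which is rich in fat, lacks choline, has amino acids in place of protein and brings on steatohepatitis, and both were sorted as Tim4-negative Ly6C-low F4/80-positive liver cells that differ in surface CD11c and Mincle. The study describes the mice given this diet as male, all libraries share genotype and diet, and no library from an untreated mouse is analysed here. The study set these subsets against each other as candidate hepatic lipid-associated macrophages (hLAMs) and monocyte-derived Kupffer cells (moKCs). Library titles name them biological replicates without saying which mouse each came from, so p-values measure the spread between these 6 libraries.

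SLC25 proteins are small carriers of the inner mitochondrial membrane, each built of repeats that share a signature motif. They are made in the cytosol from nuclear genes and inserted by the TIM22 machinery. Most exchange one metabolite for another: ADP for ATP, phosphate, citrate, malate, aspartate, carnitine esters, nucleotides or cofactors. In macrophages they link the citrate cycle to lipid synthesis, feed long-chain fatty acids to oxidation and bring iron and glycine to heme synthesis.

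No carrier gene passed the test between the subsets. Levels are in TPM, the length-scaled share of transcripts in a library. Differences in log2(TPM + 1) were fitted by limma across the 16503 genes, two-sided, and a gene was called at a Benjamini-Hochberg adjusted p under 0.05. The test called 0 of 39 carriers higher and 0 lower, against 1.22% of all genes called in either direction (0.77% higher and 0.454% lower). With the replicate number as a block, 3.42% of all genes and again 0 carriers were called. The lowest limma adjusted p of a carrier was 0.114 for Slc25a43, and 0.0530 for Slc25a33 with the block.

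Below the threshold, more carriers leaned upward than downward in CD11chiMinclehi macrophages. At an unadjusted p under 0.05, limma gave 9 carriers above and 3 below their CD11cloMinclelo level, that is 23.1% and 7.69% of the family, against 6.44% and 6.45% of all genes. Values of the subsets were fully separate for 11 carriers with CD11chiMinclehi above (28.2%, against 9.25% of all genes) and for 3 with it below (7.69%, against 9.22%). Separation came with a difference of at least 0.3 on the log2 scale and a mean of at least 5 TPM in the higher subset for 7 carriers (17.9%, against 9.62% of all genes). The difference lay above 0 for 24 carriers (61.5%, against 48.1% of all genes). Carriers were more abundant than most genes, with a median mean level of 57.5 TPM against 22.7 TPM over the table. Among the 8611 genes with a mean of at least 20 TPM, a limit chosen after the values had been seen, 13.1% were separate with CD11chiMinclehi above and 9.91% with it below, and 11 and 3 of the 31 carriers above that limit. The shares at an unadjusted p under 0.05 and above 0 were not set against genes of like level. The median difference over the 39 carriers was 0.10 on the log2(TPM + 1) scale, with quartiles of -0.09 and 0.25, and the median over all genes was -0.01. The 39 carriers summed to 3619, 3726 and 3629 TPM in CD11chiMinclehi libraries 1, 2 and 3, against 3447, 3482 and 3566 TPM in CD11cloMinclelo libraries. Every CD11chiMinclehi sum lay above every CD11cloMinclelo sum, and the family took 0.346% to 0.374% of all TPM in each library. In bulk samples such as these, fewer cells of a type and less RNA per cell cannot be told apart.

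Levels differed far more between carriers than between subsets. Slc25a5, the most abundant, averaged 464 TPM over the 6 libraries, above 99.3% of the genes in the table, and Slc25a27, the least abundant, averaged 1.29 TPM. The 6 most abundant carriers together held 46.2% to 48.8% of the family's TPM in each library. Depth, estimated from the step between low values, was 7.15 to 7.80 M reads (M for mega) per CD11chiMinclehi library and 7.01 to 8.14 M per CD11cloMinclelo library. The estimate put 2203 to 2654 reads per library on Slc25a3 and 5 to 12 on Slc25a27. The 95% interval of a difference reached 0.15 to either side (median) for the 11 carriers above 100 TPM, 0.34 for the 12 at 50 to 100 TPM, 0.47 for the 10 at 10 to 50 TPM and 1.07 for the 6 below 10 TPM, so a change of the size seen in most carriers was not detectable at the depth of the rare ones.

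**Figure D1:**
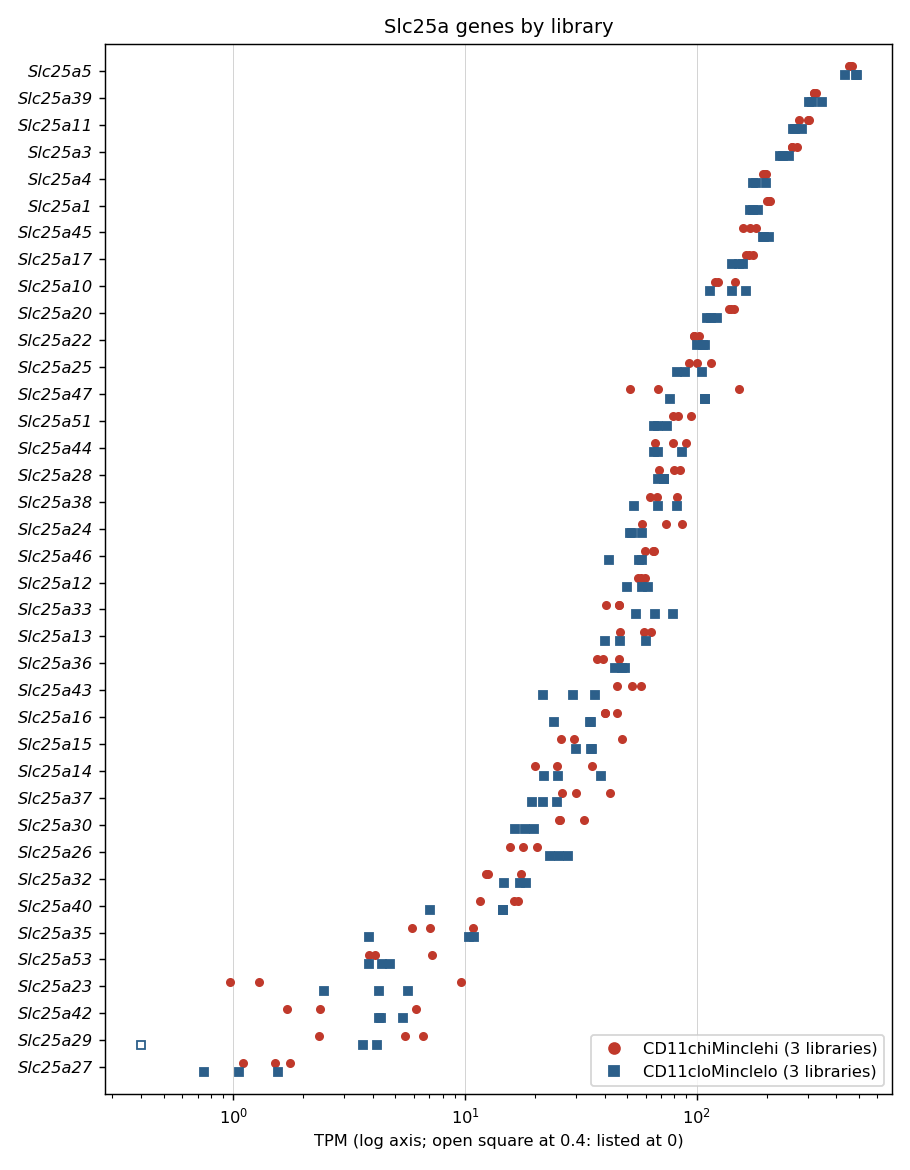
TPM on a log axis of 38 Slc25a genes, ordered by mean level, with CD11chiMinclehi libraries as red circles above CD11cloMinclelo libraries as blue squares in each row. Levels run from 1.29 to 464 TPM on average, the subsets lie close together in most rows, and 14 rows show no overlap, among them Slc25a43, Slc25a20 and Slc25a33.

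Slc25a43 had the lowest p of the family. Its product is an inner membrane carrier with no settled substrate. It was at 52.3, 57.1 and 45.2 TPM in CD11chiMinclehi libraries, against 29.2, 21.7 and 36.2 TPM in CD11cloMinclelo libraries. All CD11chiMinclehi libraries lay above all CD11cloMinclelo libraries, and the difference was 0.83 ± 0.20 on the log2 scale (SE, n = 3 each, limma adjusted p = 0.114, 95% interval 0.37 to 1.29). About 149 to 176 estimated reads stood behind it in CD11chiMinclehi libraries and 75 to 109 in CD11cloMinclelo libraries. Slc25a43 (chromosome X, 36743659 to 36777202, plus strand, GRCm38) is followed after 18448 bases by Slc25a5 (chromosome X, 36795651 to 36798807, plus strand). That neighbour encodes the ADP/ATP carrier ANT2 and was at 458, 466 and 451 TPM in CD11chiMinclehi libraries, against 489, 434 and 485 TPM in CD11cloMinclelo libraries, where the groups overlapped (difference -0.03 ± 0.05, 95% interval -0.15 to 0.09).

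At the low end of the differences was Slc25a33, which encodes a pyrimidine nucleotide carrier. It was at 46.0, 40.3 and 46.1 TPM in CD11chiMinclehi libraries, against 66.0, 54.6 and 78.8 TPM in CD11cloMinclelo libraries. All CD11chiMinclehi libraries lay below all CD11cloMinclelo libraries, with a difference of -0.57 ± 0.15 on the log2 scale (SE, n = 3 each, limma adjusted p = 0.146, and 0.0530 with the block). Between 132 and 251 estimated reads per library stood behind these values. Slc25a33 lies on chromosome 4, 149744036 to 149774277, minus strand, and the antisense gene Gm13068 overlaps an exon of it, so that reads of both could not be told apart if counting ignored strand.

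The start regions of Slc25a43 and Slc25a33, which had the lowest p among carriers above and below, and of the neighbour Slc25a5 are shown for the sequence around them. Each window is set by RefSeq's gene start (GRCm38.p6), from 250 bases before to 50 after it, in the 5′ to 3′ direction of the gene. The Slc25a5 window ends just before the gene start that GENCODE gives, from which the gene coordinates here are taken, so for that gene it holds upstream sequence only by that annotation. Capitals mark the E-box CACGTG, a palindrome bound by MYC and TFE family factors, and the GC box GGGCGG on either strand, bound by SP factors.
Slc25a43 (chrX:36743382-36743681, plus strand): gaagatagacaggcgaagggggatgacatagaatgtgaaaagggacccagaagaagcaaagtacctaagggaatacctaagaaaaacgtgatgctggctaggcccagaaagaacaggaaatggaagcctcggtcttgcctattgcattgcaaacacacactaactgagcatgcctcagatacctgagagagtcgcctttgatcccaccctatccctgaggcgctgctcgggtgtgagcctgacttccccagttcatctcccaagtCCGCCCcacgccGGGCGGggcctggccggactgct
Slc25a5 (chrX:36795347-36795646, plus strand): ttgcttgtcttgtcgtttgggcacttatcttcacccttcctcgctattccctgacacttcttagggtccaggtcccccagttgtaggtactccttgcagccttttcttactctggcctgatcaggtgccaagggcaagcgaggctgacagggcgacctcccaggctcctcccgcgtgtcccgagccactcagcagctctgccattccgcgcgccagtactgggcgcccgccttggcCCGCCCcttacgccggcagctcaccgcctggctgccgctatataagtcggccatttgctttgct
Slc25a33 (chr4:149774218-149774517, minus strand): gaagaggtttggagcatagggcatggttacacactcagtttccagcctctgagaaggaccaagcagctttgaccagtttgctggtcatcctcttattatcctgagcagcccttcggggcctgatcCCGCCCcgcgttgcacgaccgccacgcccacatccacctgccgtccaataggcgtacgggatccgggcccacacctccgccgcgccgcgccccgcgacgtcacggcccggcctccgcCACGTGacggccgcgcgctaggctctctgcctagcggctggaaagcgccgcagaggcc

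The Slc25a43 window held 2 GC boxes, 0 E-boxes and 11 CG dinucleotides, that of Slc25a5 held 1 GC box, 0 E-boxes and 18 CG dinucleotides, and that of Slc25a33 held 1 GC box, 1 E-box and 30 CG dinucleotides. Start windows were listed for 30 of the 39 carriers. GC boxes stood in 27 of these 30 (89.7% of their 39 windows, as some carriers have several), against 58.8% of the 13396 windows of genes in the table and 35.7% of all 32851 windows. Carrier windows held a median of 17 CG dinucleotides, against 7 over all windows. Motif shares were not set against windows of like base composition. CACGTG stood in windows of 6 carriers, Slc25a1, Slc25a13, Slc25a14, Slc25a15, Slc25a33 and Slc25a36, or 17.9% of carrier windows against 9.70% of windows of genes in the table. CCAAT, searched on both strands, stood in windows of 17 carriers (51.3% of carrier windows against 37.8%). The letters GCGCATGC, the core of the NRF1 site, and AAGGTCA, a site of ERR receptors, were in 0 carrier windows, against 4.77% and 3.51% of windows of genes in the table. The CACGTG holders had differences on both sides of 0, with 0.21 for Slc25a1, 0.21 for Slc25a13, -0.01 for Slc25a15, -0.09 for Slc25a14, -0.20 for Slc25a36 and -0.57 for Slc25a33.

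**Figure D2:**
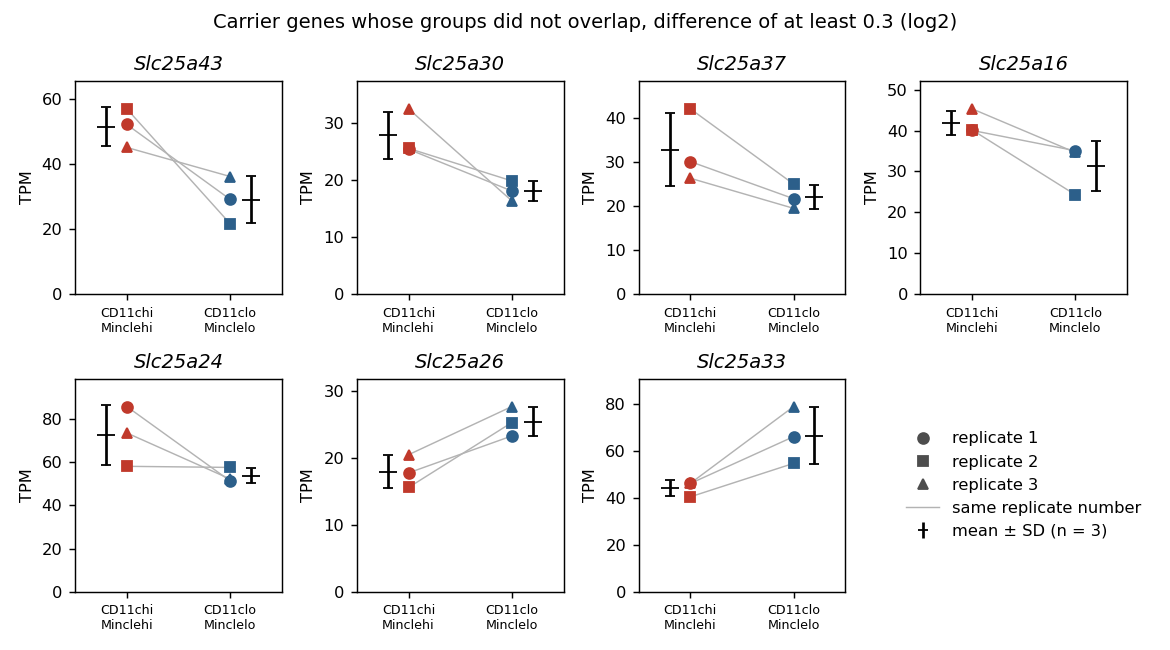
TPM of the 7 carrier genes whose groups did not overlap and differed by at least 0.3 on the log2 scale, with CD11chiMinclehi libraries (red) left of CD11cloMinclelo libraries (blue), grey lines between libraries of the same replicate number, and means ± SD (n = 3) at the sides. Slc25a43, Slc25a30, Slc25a37, Slc25a16 and Slc25a24 lie above their CD11cloMinclelo level in all 3 pairs of numbers, and Slc25a26 and Slc25a33 below it, while none passed the adjusted test. The genes were picked for full separation, which fixes a like direction in all pairs.

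The carriers of adenine nucleotides and phosphate supply ATP synthase and were among the most abundant. Among the 6 measured members of this group none was called, and the median difference was 0.11. Slc25a3, which imports the phosphate for ATP synthesis, was at 257, 269 and 258 TPM in CD11chiMinclehi libraries, against 249, 228 and 235 TPM in CD11cloMinclelo libraries. The groups did not overlap, and the difference was small at 0.14 ± 0.05 (limma adjusted p = 0.319). Slc25a4, the ANT1 form of the ADP/ATP carrier known from heart and muscle, was at 197, 198 and 192 TPM in CD11chiMinclehi libraries, against 198, 175 and 181 TPM in CD11cloMinclelo libraries. One CD11cloMinclelo library, replicate 1, reached the level of CD11chiMinclehi libraries, and the difference was 0.09 ± 0.06 (limma adjusted p = 0.664), or 0.14 without that library and 0.05 without CD11cloMinclelo replicate 2. Per unit of Slc25a5, there were 0.431, 0.424 and 0.427 units of Slc25a4 TPM in CD11chiMinclehi libraries and 0.405, 0.403 and 0.373 in CD11cloMinclelo libraries. This ratio of ANT1 to ANT2 transcripts, chosen after the values had been seen and not tested, did not overlap between the subsets. Its log2 difference was 0.118. Of the other ratios computed, that of Slc25a43 to Slc25a5 did not overlap. Those of Slc25a12 to Slc25a13, Slc25a37 to Slc25a28, Slc25a33 to Slc25a36, Slc25a24 to Slc25a25 and Slc25a39 to Slc25a40 overlapped. Of single genes over the table, 18.5% were separate in either direction.

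Among the calcium-regulated ATP-magnesium/phosphate carriers, Slc25a24 was at 85.9, 58.2 and 73.7 TPM in CD11chiMinclehi libraries, against 51.4, 57.7 and 52.3 TPM in CD11cloMinclelo libraries. The CD11chiMinclehi library of replicate 2 stood just above the highest CD11cloMinclelo library, and the difference was 0.41 ± 0.15 (limma adjusted p = 0.296). Its paralog Slc25a25 was at 103 ± 11.7 TPM in CD11chiMinclehi macrophages and 91.9 ± 12 TPM in CD11cloMinclelo macrophages (from here on means ± SD and differences ± SE, n = 3 each), with a difference of 0.16 ± 0.12 (limma adjusted p = 0.679, and differences of 0.07 to 0.26 over all settings run). None of 15 ATP synthase genes measured was called, and their median difference was 0.05.

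**Figure D3:**
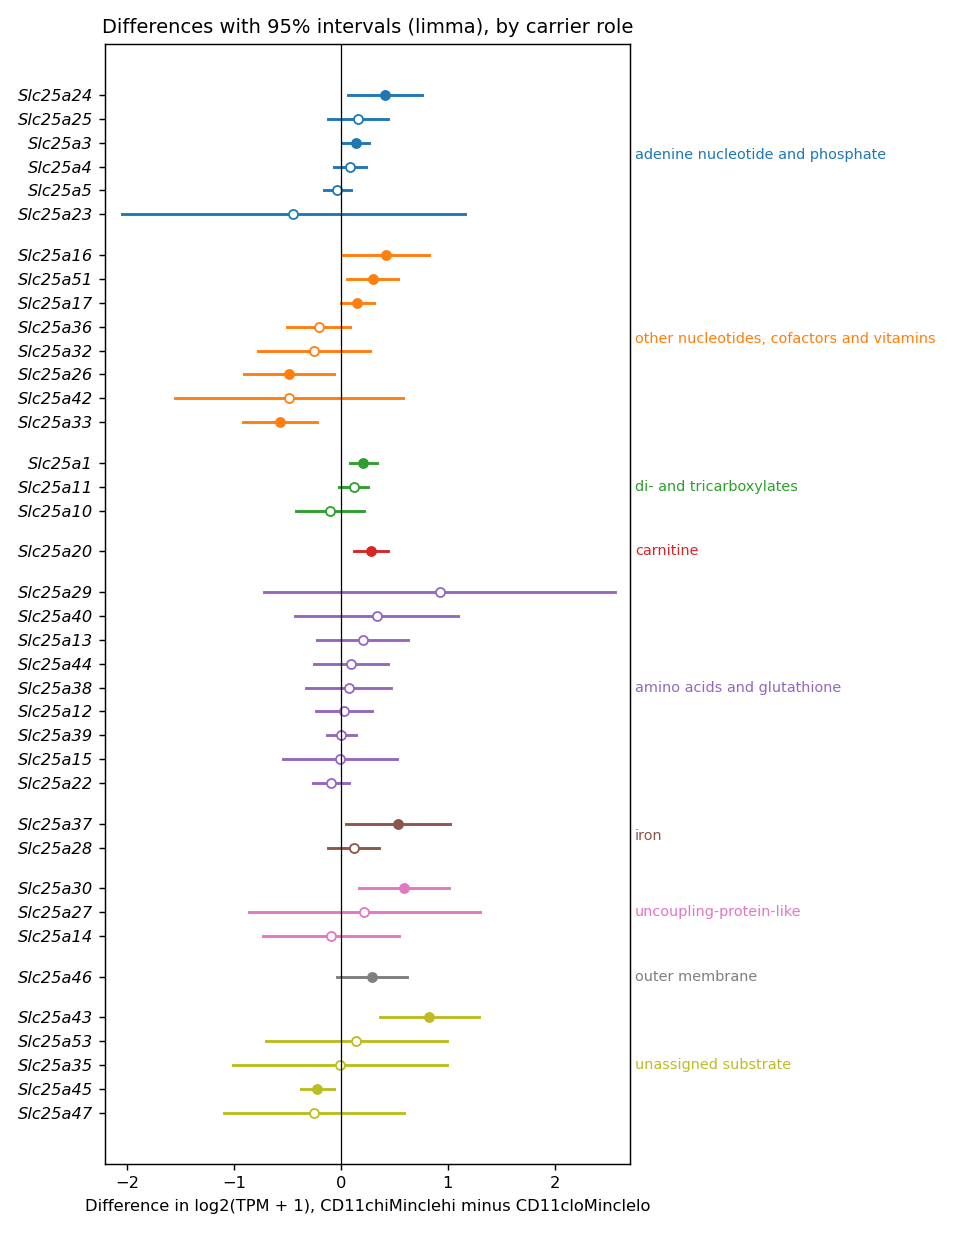
Difference in log2(TPM + 1), CD11chiMinclehi minus CD11cloMinclelo, of 38 carrier genes with 95% limma intervals, grouped by role, where filled points mark genes whose groups did not overlap. Points run from -0.57 for Slc25a33 to 0.92 for Slc25a29, which has few reads and a wide interval, and all 9 intervals of the amino acid and glutathione carriers cross 0. Over all genes 12.9% had an unadjusted limma p under 0.05, that is an interval clear of 0.

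Carriers of cofactors and other nucleotides differed among themselves in direction. None of the 9 members was called, 3 lay above 0 and 6 below, and the median difference was -0.20. Slc25a16, whose yeast counterpart serves coenzyme A import, was at 40.0, 40.2 and 45.3 TPM in CD11chiMinclehi libraries, against 35.1, 24.3 and 34.6 TPM in CD11cloMinclelo libraries. The subsets did not overlap, and the difference was 0.42 ± 0.17 (limma adjusted p = 0.356), or 0.25 without CD11cloMinclelo replicate 2. Slc25a26, which imports the methyl donor S-adenosylmethionine, was at 17.8, 15.6 and 20.5 TPM in CD11chiMinclehi libraries, against 23.3, 25.3 and 27.7 TPM in CD11cloMinclelo libraries. CD11chiMinclehi libraries were the lower in each case, with a difference of -0.48 ± 0.18 (limma adjusted p = 0.305), and exons of Slc25a26 overlap the Lrig1 gene on the other strand. The NAD carrier gene Slc25a51 (85.4 ± 8.20 TPM in CD11chiMinclehi against 69.2 ± 4.72 TPM in CD11cloMinclelo macrophages) and the peroxisomal cofactor carrier gene Slc25a17 (168 ± 5.79 TPM in CD11chiMinclehi against 151 ± 8.25 TPM in CD11cloMinclelo macrophages) lay above without overlap, at limma adjusted p = 0.271 and 0.393. Slc25a36, the other pyrimidine nucleotide carrier, was at 40.7 ± 4.63 TPM in CD11chiMinclehi macrophages and 47.0 ± 2.50 TPM in CD11cloMinclelo macrophages (limma adjusted p = 0.578). The folate carrier gene Slc25a32 overlapped between subsets, at 14 ± 2.85 TPM in CD11chiMinclehi against 16.7 ± 1.85 TPM in CD11cloMinclelo macrophages. Of 11 genes for mitochondrial nucleotides and NAD and 9 for mitochondrial folate metabolism, 0 rose and 0 fell.

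Markers of dividing cells had lower values in CD11chiMinclehi macrophages, as had Slc25a33, Slc25a26 and Slc25a45, the 3 carriers separate with CD11chiMinclehi below. The 8 of 8 markers measured summed to 61.6, 98.8 and 226 TPM in CD11chiMinclehi libraries, against 164, 209 and 284 TPM in CD11cloMinclelo libraries, and all 8 had a lower mean log2 level in CD11chiMinclehi macrophages, with 0 called. Over all genes 48.1% lay above 0. The part of dividing cells in the values of these carriers was not tested. Within each of the 3 replicate numbers the marker sum was lower in the CD11chiMinclehi library. The carriers were picked for full separation, which fixes the same direction for them in advance, so the match is no link between them and the markers.

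Slc25a1 and Slc25a20, which join mitochondria to lipid metabolism, each stood apart by a small and even margin. Slc25a1 exports citrate, the carbon source of fatty acid and sterol synthesis, and was at 204, 201 and 207 TPM in CD11chiMinclehi libraries, against 175, 184 and 169.5 TPM in CD11cloMinclelo libraries. No library of either subset crossed into the range of the other, and the difference was 0.21 ± 0.06 (limma adjusted p = 0.146, 95% interval 0.08 to 0.34). Slc25a20 exchanges acylcarnitine for carnitine on the way to fatty acid oxidation and was at 145, 137 and 141 TPM in CD11chiMinclehi libraries, against 115, 111 and 122 TPM in CD11cloMinclelo libraries. Again the CD11chiMinclehi libraries were all above, by 0.28 ± 0.07 (limma adjusted p = 0.118, 95% interval 0.12 to 0.44). Slc25a11, the oxoglutarate/malate carrier of the malate-aspartate shuttle, was at 275, 300.0 and 303 TPM in CD11chiMinclehi libraries, against 259, 284 and 265 TPM in CD11cloMinclelo libraries. There the groups overlapped, with a difference of 0.12 ± 0.06 (limma adjusted p = 0.462). The dicarboxylate carrier gene Slc25a10 was at 129 ± 14.3 TPM in CD11chiMinclehi macrophages and 139.6 ± 24.6 TPM in CD11cloMinclelo macrophages (limma adjusted p = 0.845).

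Most genes on both sides of these carriers leaned the same way without passing. None of 8 carnitine shuttle and long-chain oxidation genes was called, 7 lay above 0 and the median difference was 0.17. Cpt1a, which makes the acylcarnitine that Slc25a20 carries, was at 215, 213 and 214 TPM in CD11chiMinclehi macrophages and 184, 184 and 173 TPM in CD11cloMinclelo macrophages (difference 0.25 ± 0.05, limma adjusted p = 0.0859). The carnitine acetyltransferase gene Crat was at 102, 102 and 97.0 TPM in CD11chiMinclehi macrophages and 65.2, 73.3 and 88.2 TPM in CD11cloMinclelo macrophages (difference 0.42 ± 0.12, limma adjusted p = 0.174). Cpt2 overlapped between the subsets, at 81.7 ± 5.48 TPM in CD11chiMinclehi against 74.4 ± 3.26 TPM in CD11cloMinclelo macrophages. Its difference was 0.13 ± 0.09 (limma adjusted p = 0.627). Slc22a5 was the 1 gene of this list below 0, at -0.33 ± 0.20 (limma adjusted p = 0.558). Of 10 genes of citrate export and the malate-aspartate shuttle 0 were called and 10 lay above 0, with a median of 0.16. Acly, the enzyme that splits exported citrate, was at 247, 255 and 255 TPM in CD11chiMinclehi macrophages and 239.8, 253 and 247 TPM in CD11cloMinclelo macrophages, a difference of 0.03 ± 0.05 with overlapping groups. Of 17 citrate cycle genes 0 were called, 16 lay above 0 and 8 were separate with CD11chiMinclehi above, with a median of 0.14. Over all genes 48.1% lay above 0 and 9.25% were separate in that direction, or 13.1% of genes of at least 20 TPM.

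Carriers of amino acids and glutathione showed no gene without overlap, where 18.5% of all genes were separate in either direction. None of the 9 members was called, and the median difference was 0.07. Slc25a39, the importer of glutathione and the second most abundant carrier, was at 319.9, 327 and 319 TPM in CD11chiMinclehi libraries, against 313, 304 and 348 TPM in CD11cloMinclelo libraries. Its difference was 0.01 ± 0.06 with a 95% interval of -0.13 to 0.14, and the CD11cloMinclelo libraries spread on both sides of the CD11chiMinclehi libraries. The paralog Slc25a40 was at 14.9 ± 2.92 TPM in CD11chiMinclehi macrophages and 12.1 ± 4.37 TPM in CD11cloMinclelo macrophages (difference 0.34 ± 0.33, limma adjusted p = 0.756, and 0.02 to 0.50 on the log2 scale over all settings run). The level of Slc25a39 was 22.2 ± 5.20 times that of Slc25a40 in CD11chiMinclehi libraries and 30.6 ± 16.4 times in CD11cloMinclelo libraries on the TPM scale (SD, n = 3 each).

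Enzymes of glutathione were measured beside its importer. Among 7 glutathione genes 1 was called higher and 0 lower, or 2 and 0 with the block, while all 7 lay above 0 with a median of 0.22. Over all genes 0.77% were called higher, 0.454% lower and 3.42% in either direction with the block. A share of 48.1% of all genes lay above 0. Gsr, which reduces oxidized glutathione, was at 419, 394 and 359 TPM in CD11chiMinclehi macrophages and 283, 273 and 244 TPM in CD11cloMinclelo macrophages (difference 0.55 ± 0.08, limma adjusted p = 0.0242). With 1 library left out, the Gsr difference was 0.49 to 0.61 and passed in 0 of 6 fits, at limma adjusted p = 0.0595 to 0.146. Gclm, a subunit of the enzyme that starts glutathione synthesis, passed only with the block, at 167, 143 and 142 TPM in CD11chiMinclehi macrophages and 125, 105 and 108 TPM in CD11cloMinclelo macrophages (difference 0.42 ± 0.10, limma adjusted p = 0.107, and 0.0211 with the block). The difference between these enzymes and Slc25a39 was not itself tested.

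The 2 aspartate/glutamate carriers, which serve the malate-aspartate shuttle, had close levels. Slc25a12 was at 57.5 ± 2.07 TPM in CD11chiMinclehi macrophages and 56.4 ± 5.88 TPM in CD11cloMinclelo macrophages, and Slc25a13, the liver form citrin, at 56.3 ± 8.90 TPM in CD11chiMinclehi macrophages and 49.0 ± 10.5 TPM in CD11cloMinclelo macrophages, with differences of 0.03 ± 0.11 and 0.21 ± 0.18 and limma adjusted p = 0.958 and 0.728. Over all settings run the Slc25a12 difference lay between -0.05 and 0.09 and that of Slc25a13 between 0.07 and 0.37. The glutamate carrier gene Slc25a22 (98.8 ± 2.92 TPM in CD11chiMinclehi against 105 ± 4.26 TPM in CD11cloMinclelo macrophages), the branched-chain amino acid carrier gene Slc25a44 (78.1 ± 11.7 TPM in CD11chiMinclehi against 73.0 ± 11.3 TPM in CD11cloMinclelo macrophages), the ornithine carrier gene Slc25a15 (34.4 ± 11.7 TPM in CD11chiMinclehi against 33.5 ± 2.87 TPM in CD11cloMinclelo macrophages) and the basic amino acid carrier gene Slc25a29 (4.80 ± 2.2 TPM in CD11chiMinclehi against 2.60 ± 2.27 TPM in CD11cloMinclelo macrophages) overlapped between subsets. Slc25a29 was listed at 0 in CD11cloMinclelo replicate 3 and rested on 11 to 32 estimated reads in the other libraries, and its difference of 0.92 had a 95% interval of -0.72 to 2.57 and lay between 0.16 and 1.94 over all settings run. Of 12 genes of glutamine, proline and ornithine metabolism 0 passed and 1 rose with the block, where 3.42% of all genes were called in either direction. None of 6 genes of branched-chain amino acid breakdown was called. The gene that passed with the block, Ass1, the enzyme that makes argininosuccinate, was at 149, 215 and 131 TPM in CD11chiMinclehi macrophages and 97.0, 134 and 112 TPM in CD11cloMinclelo macrophages (difference 0.51 ± 0.19, limma adjusted p = 0.305, and 0.0467 with the block).

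Of the iron importers, 1 was separate between the subsets and neither was called. Slc25a37, or mitoferrin 1, which brings iron to heme synthesis in red cell precursors, was at 30.0, 42.0 and 26.3 TPM in CD11chiMinclehi libraries, against 21.6, 24.9 and 19.4 TPM in CD11cloMinclelo libraries. Every CD11chiMinclehi library exceeded every CD11cloMinclelo library, with the highest value in replicate 2, and the difference was 0.53 ± 0.21 (limma adjusted p = 0.333, 95% interval 0.05 to 1.02), or 0.35 without that library. Slc25a28, or mitoferrin 2, the form of most other cells, was at 84.2, 79.7 and 68.6 TPM in CD11chiMinclehi libraries, against 72.2, 68.1 and 72.1 TPM in CD11cloMinclelo libraries. Here the groups overlapped, with a difference of 0.12 ± 0.10 (limma adjusted p = 0.719, and differences of 0.06 to 0.21 over all settings run). The 5 erythroid markers in the table, of 8 listed, summed to 14.8, 176 and 254 TPM in CD11chiMinclehi libraries and 20.5, 266 and 350 TPM in CD11cloMinclelo libraries. Their part in the values of Slc25a37 was not tested. Gm27223, an antisense gene, and Gm31748 overlap Slc25a37 exons on the other strand, and its reads are uncertain to that extent.

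Alas1, the first and rate-limiting enzyme of heme synthesis outside red cells, rose in CD11chiMinclehi macrophages. It was at 340.0, 350.1 and 311 TPM in CD11chiMinclehi macrophages and 225, 224 and 238 TPM in CD11cloMinclelo macrophages (difference 0.54 ± 0.06, limma adjusted p = 0.0150). With 1 library left out, the Alas1 difference was 0.51 to 0.59 and passed in 1 of 6 fits, at limma adjusted p = 0.0360 to 0.116. Of 16 genes for heme and iron-sulfur clusters it was the 1 that rose, and 0 fell, and the median difference was 0.08. Over all genes 0.77% rose and 0.454% fell. Slc25a38, which imports the glycine that Alas1 uses, was at 63.0, 81.8 and 67.2 TPM in CD11chiMinclehi libraries, against 53.3, 81.8 and 68.1 TPM in CD11cloMinclelo libraries, where the groups overlapped (difference 0.07 ± 0.17, limma adjusted p = 0.923, and differences of -0.09 to 0.22 over all settings run). Fech, which inserts iron into heme, was at 55.2 ± 7.84 TPM in CD11chiMinclehi macrophages and 55.4 ± 8.41 TPM in CD11cloMinclelo macrophages (limma adjusted p = 1.00).

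Of the 3 carriers most like uncoupling proteins, 1 did not overlap between the subsets. Slc25a30, first described as a kidney mitochondrial carrier, was at 25.4, 25.6 and 32.5 TPM in CD11chiMinclehi libraries, against 18.1, 19.9 and 16.3 TPM in CD11cloMinclelo libraries. The CD11chiMinclehi libraries were all above, by 0.59 ± 0.18 (limma adjusted p = 0.217). Slc25a14 was at 26.7 ± 7.71 TPM in CD11chiMinclehi macrophages and 28.5 ± 8.95 TPM in CD11cloMinclelo macrophages, with overlap, and Slc25a27 stayed under 2 TPM in all 6 libraries. Uncoupling proteins that carry other symbols belong to the same family. Ucp2, the form known from macrophages, was at 302, 311 and 301 TPM in CD11chiMinclehi macrophages and 305, 274 and 288 TPM in CD11cloMinclelo macrophages (difference 0.08 ± 0.05, limma adjusted p = 0.636). Ucp3 was at 1.55, 2.36 and 3.97 TPM in CD11chiMinclehi macrophages and 0.482, 0.628 and 0.726 TPM in CD11cloMinclelo macrophages (limma adjusted p = 0.387), at a level close to the floor of the table. The insertase gene Mtch2 of the outer membrane was at 169 ± 7.38 TPM in CD11chiMinclehi macrophages and 157 ± 7.15 TPM in CD11cloMinclelo macrophages (limma adjusted p = 0.554).

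Slc25a46, an outer membrane member that acts in mitochondrial shape, was at 65.4, 64.4 and 59.5 TPM in CD11chiMinclehi libraries, against 41.7, 57.7 and 56.1 TPM in CD11cloMinclelo libraries (difference 0.29 ± 0.14, limma adjusted p = 0.450). The groups did not overlap, and CD11cloMinclelo replicate 1 was the lowest, without which the difference was 0.15. Exons of Slc25a46 overlap B930094E09Rik, those of Slc25a11 Rnf167 and those of Slc25a25 Naif1, each on the other strand. Further carriers, among them Slc25a10, Slc25a23 and Slc25a35, also share exon bases with other genes. Slc25a45, whose substrate was left unassigned here, was at 180.0, 159 and 170.1 TPM in CD11chiMinclehi libraries, against 194, 205 and 192 TPM in CD11cloMinclelo libraries. Its CD11chiMinclehi libraries were all below, with a difference of -0.22 ± 0.07 (limma adjusted p = 0.212, 95% interval -0.37 to -0.07). Slc25a35 (7.90 ± 2.56 TPM in CD11chiMinclehi against 8.39 ± 3.92 TPM in CD11cloMinclelo macrophages) and Slc25a53 (5.04 ± 1.86 TPM in CD11chiMinclehi against 4.32 ± 0.449 TPM in CD11cloMinclelo macrophages) were low and overlapped.

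Slc25a47, a carrier known as specific to liver parenchyma, varied more between libraries than any other carrier above 50 TPM. It was at 51.4, 152 and 67.6 TPM in CD11chiMinclehi libraries, against 76.4, 109 and 108 TPM in CD11cloMinclelo libraries. The highest and the lowest library were both CD11chiMinclehi, replicates 2 and 1, and the difference was -0.25 ± 0.36 (limma adjusted p = 0.854, 95% interval -1.09 to 0.59). Without CD11chiMinclehi replicate 1 it was 0.07, and without replicate 2 it was -0.70, with neither called. The 13 hepatocyte markers in the table, of 14 listed, summed to 1870, 3497 and 2142 TPM in CD11chiMinclehi libraries, against 2070, 2818 and 2933 TPM in CD11cloMinclelo libraries, with no marker at 0 in any library. Slc25a42, a coenzyme A carrier (1.70, 6.14 and 2.37 TPM in CD11chiMinclehi libraries, against 4.24, 4.33 and 5.37 TPM in CD11cloMinclelo libraries), and Slc25a23, a further ATP-magnesium/phosphate carrier (0.969, 9.61 and 1.28 TPM in CD11chiMinclehi libraries, against 2.46, 5.64 and 4.23 TPM in CD11cloMinclelo libraries), had their highest and lowest values in the same libraries as this sum. Their differences were -0.49 ± 0.46 and -0.44 ± 0.69, at limma adjusted p = 0.747 and 0.865. Without CD11chiMinclehi replicates 1 and 2 in turn, Slc25a42 had -0.20 and -0.90 and Slc25a23 had -0.0025 and -1.22. These 3 of 39 carriers shared the highest and the lowest library with the sum, and 0 of 39 also shared its second lowest. The share of all genes with such a match was not counted. The part of hepatocyte RNA in them was not tested. Slc25a47 lies 162 bases from Slc25a29 on chromosome 12, on the opposite strand, and the neighbour stayed below 7 TPM in every library.

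**Figure D4:**
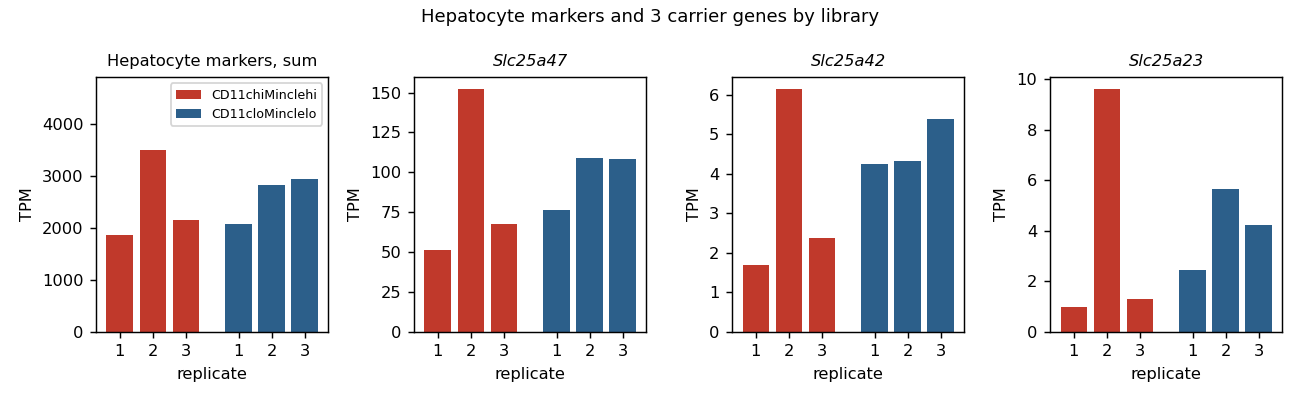
TPM by library of the 13 hepatocyte markers summed, Slc25a47, Slc25a42 and Slc25a23, with the 3 CD11chiMinclehi libraries (red) left of the 3 CD11cloMinclelo libraries (blue). In each panel CD11chiMinclehi replicate 2 is the highest and CD11chiMinclehi replicate 1 the lowest, at 152 and 51.4 TPM for Slc25a47. The carriers drawn are the 3 of 39 that share these libraries with the marker sum, so the match is how they were picked. Slc25a42 rested on 19 to 64 estimated reads per library and Slc25a23 on 9 to 88.

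No gene of the machinery around the carriers was called. Of 12 genes for import and insertion of carriers by TOM70 and TIM22 0 rose and 0 fell, with a median difference of 0.08 and a summed level of 923 to 953 TPM in CD11chiMinclehi libraries against 886 to 913 TPM in CD11cloMinclelo libraries. Timm22, the channel that inserts carriers, was at 43.3 ± 2.17 TPM in CD11chiMinclehi macrophages and 40.9 ± 9.48 TPM in CD11cloMinclelo macrophages (limma adjusted p = 0.883), and Tomm70a, the receptor, at 90.0 ± 6.52 TPM in CD11chiMinclehi macrophages and 86.3 ± 3.33 TPM in CD11cloMinclelo macrophages (limma adjusted p = 0.863). Of 4 outer membrane channel genes 0 were called and 4 lay above 0, as did 48.1% of all genes, with a median of 0.10. Their summed levels were 1055 to 1135 TPM in CD11chiMinclehi libraries against 971 to 1020.0 TPM in CD11cloMinclelo libraries. Vdac1 was at 244 ± 8.63 TPM in CD11chiMinclehi macrophages and 224 ± 8.09 TPM in CD11cloMinclelo macrophages, without overlap. Vdac2 (237 ± 8.44 TPM in CD11chiMinclehi against 230 ± 5.12 TPM in CD11cloMinclelo macrophages) and Vdac3 (172 ± 14.4 against 162 ± 4.37 TPM) overlapped. The sums of both lists did not overlap between the subsets. The same held for lists of the citrate cycle, citrate export, carnitine shuttle, heme, glutathione, other inner membrane transporters and SLC25 proteins under other symbols. Sums overlapped for the ATP synthase, folate, glutamine, branched-chain amino acid, mitochondrial nucleotide and biogenesis regulator lists. Of 11 regulators of mitochondrial biogenesis 0 were called and the median was 0.07. The nuclear receptor gene Esrra was separate with CD11chiMinclehi above, and the coactivator gene Pprc1 and the transcription factor gene Myc with it below, at limma adjusted p = 0.523, 0.362 and 0.334.

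Inner membrane transporters outside the SLC25 family leaned upward in CD11chiMinclehi macrophages. Of 17 such genes 0 rose and 0 fell without the block, 2 rose and 0 fell with the block, 15 lay above 0 and the median difference was 0.16. Over all genes 3.42% were called in either direction with the block and 48.1% lay above 0. Of the 17 genes, the groups did not overlap for 11 with CD11chiMinclehi above and for 2 with it below. The shares were 9.25% and 9.22% of all genes, or 13.1% and 9.91% of genes of at least 20 TPM. Sfxn3, a sideroflexin of the serine transporter family, was at 184, 155 and 160.2 TPM in CD11chiMinclehi macrophages and 127, 115 and 122 TPM in CD11cloMinclelo macrophages (difference 0.45 ± 0.08, limma adjusted p = 0.0529, and 0.0181 with the block). Mcub, the inhibitory subunit of the calcium uniporter, was at 286, 305 and 263 TPM in CD11chiMinclehi macrophages and 245, 230.2 and 212 TPM in CD11cloMinclelo macrophages (difference 0.31 ± 0.07, limma adjusted p = 0.112, and 0.0314 with the block). Mpc1, a subunit of the pyruvate carrier, was at 53.5, 62.0 and 48.5 TPM in CD11chiMinclehi macrophages and 39.3, 44.6 and 43.5 TPM in CD11cloMinclelo macrophages (limma adjusted p = 0.298). Mpc2, its other subunit, overlapped, at 191, 189 and 167 TPM in CD11chiMinclehi against 183, 155 and 155 TPM in CD11cloMinclelo macrophages (limma adjusted p = 0.551). Sfxn1, the main serine importer, lay on the other side at 109, 97.2 and 107 TPM in CD11chiMinclehi macrophages and 119.7, 114 and 129 TPM in CD11cloMinclelo macrophages (limma adjusted p = 0.335).

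The sort was visible in Itgax, the CD11c gene, at 327 ± 12.6 TPM in CD11chiMinclehi against 183 ± 12.6 TPM in CD11cloMinclelo macrophages (limma adjusted p = 0.00467, and 0.0360 to 0.0815 with 1 library left out). Clec4e, the Mincle gene, was at 391, 399 and 305 TPM in CD11chiMinclehi macrophages and 349.9, 352 and 246 TPM in CD11cloMinclelo macrophages. It was higher in CD11chiMinclehi within all 3 replicate numbers and did not pass (limma adjusted p = 0.655, and 0.0667 with the block). The 10 macrophage markers were all measured and summed to 5430 to 5550 TPM in CD11chiMinclehi libraries and 5301 to 5952 TPM in CD11cloMinclelo libraries. None was called without the block, and with it 2 fell: Adgre1, the F4/80 gene, at 511 ± 44.2 TPM in CD11chiMinclehi against 596 ± 41.3 TPM in CD11cloMinclelo macrophages (limma adjusted p = 0.250, and 0.0421 with the block), and Fcgr1, an Fc receptor gene, at 178 ± 7.62 TPM in CD11chiMinclehi against 215 ± 5.36 TPM in CD11cloMinclelo macrophages (0.0739 and 0.0464). Over all genes 1.22% were called in either direction, and 3.42% with the block. Replicate 1 of both groups held less RNA of other blood cells than replicates 2 and 3. The 7 lymphocyte markers summed to 14.7, 229 and 108 TPM in CD11chiMinclehi libraries and 17.7, 382 and 153 TPM in CD11cloMinclelo libraries, and 6 neutrophil markers of 7 listed to 54.3, 239 and 282 TPM in CD11chiMinclehi libraries and 37.0, 384 and 316 TPM in CD11cloMinclelo libraries. Stellate cell markers, 5 of 6 listed, summed to 95.5 to 127 TPM in CD11chiMinclehi libraries and 149.8 to 229.5 TPM in CD11cloMinclelo libraries, and 1 of them, Dcn, fell (limma adjusted p = 0.0253, or 0.0595 to 0.146 with 1 library left out). With the block Col3a1 fell as well (limma adjusted p = 0.217, and 0.0358 with the block). The 6 endothelial markers summed to 57.8, 89.2 and 111 TPM in CD11chiMinclehi libraries and 64.7, 113 and 196 TPM in CD11cloMinclelo libraries, and 1 of them, Cdh5, fell with the block, at 5.84 ± 3.32 TPM in CD11chiMinclehi against 25.8 ± 13.7 TPM in CD11cloMinclelo macrophages (limma adjusted p = 0.112, and 0.0126 with the block). Of the endothelial markers 4 lay below 0 and 2 above, Lyve1 at 0.75 ± 0.64 and Clec4g at 0.37 ± 0.54 (limma adjusted p = 0.724 and 0.855). The part of these cells in the carrier values was not tested.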

How the data were processed

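Polyadenylated RNA of sorted liver macrophages was made into strand-specific libraries and sequenced from both ends. Per the labels and the study's methods, the authors used Trimmomatic 0.39.0 for adaptors, HISAT2 2.2.1 for alignment to GRCm38, Picard to drop duplicates and featureCounts 2.0.1, and turned the result into TPM on the UCSC copy of that genome. Which annotation release and strand setting they used is not given in the sources used here. Duplicate removal can hold down abundant genes, and its effect was not tested. The deposited TPM table held 16503 genes, with a lowest mean of 1.00 TPM and sums of 996785 to 997771 TPM per library.

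Log2(TPM + 1) values were fitted with limma 3.58.1 in R 4.3.3 on all genes and all 6 libraries, moderated with a trend in the variance, two-sided, with Benjamini-Hochberg adjustment, after a test on simulated data. Fold changes are CD11chiMinclehi minus CD11cloMinclelo, and understate changes of low genes. The main fit had no term for replicate number. Deviations from the group means correlated at 0.36, 0.20 and 0.12 between libraries numbered 1, 2 and 3. Between libraries of unlike numbers the correlations ran from -0.24 to 0.06. The authors' own sample names give both subsets the same odd numbers. The study also compared these sorted fractions by paired t-tests in its qPCR, lipid staining and cytokine assays. Same-numbered libraries may therefore be pairs, and a fit with the block was run as an alternative. Every SE, interval and p not marked as from the block or another setting is from the unpaired main fit. Block results are given where they change a call. TPM keeps no depth, so reads were estimated from steps of TPM times exon length in GENCODE mouse release 21 (16104 genes matched by unique symbol), within 0.05 of a whole step for 80.3% to 86.6% of low values, and it is unknown whether a step stands for single reads or pairs. The lengths may differ from those the authors used.

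Values by library are given for carriers whose groups did not overlap with a difference of at least 0.3 and a mean of 5 TPM or more where higher, and for the 5 most abundant. Further carriers (Slc25a1, Slc25a20, Slc25a28, Slc25a38, Slc25a42, Slc25a45, Slc25a46, Slc25a47 and Slc25a23) were added after their values were seen, as were genes of the related lists that no fit called. Role groups, related lists and markers were composed from general knowledge, and members and lists were chosen with earlier results of these data known. Counts and sums cover all 39 carriers, 1 of which is not reported here on its own. The role lists also held 8 Slc25a symbols not analysed here. Alternatives were the block, pseudocounts of 0.1 and 5 TPM, a filter at a mean of 5 TPM, quantile normalization, a median shift, no trend, and each library left out.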

Additional observations from a re-analysis of the deposited data

How the results depend on the processing

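In every alternative run, 0 carriers were called higher and 0 lower, replicate block included. The number of carriers at an unadjusted p under 0.05 ran from 7 to 14, and the lowest limma adjusted p of any carrier from 0.0530 (Slc25a33, replicate block) to 0.294 (Slc25a45, without CD11chiMinclehi replicate 1). The calls over all genes moved more: 202 as reported, 564 with the replicate block, 337 after quantile normalization, 19 without the mean-variance trend, and 0 to 46 with 1 library left out, so that with 1 library fewer the absence of calls says little about the carriers. The median difference over the carriers was 0.0967 with and without the replicate block and 0.08 to 0.10 under the other settings on all libraries. With 1 library left out it ran from 0.0717 (without CD11cloMinclelo replicate 3) to 0.1384 (without CD11cloMinclelo replicate 2). With 1 library left out, 2 to 5 carriers changed sign in each fit, and over all settings 10 did in at least 1: Slc25a10, Slc25a12, Slc25a14, Slc25a15, Slc25a35, Slc25a38, Slc25a39, Slc25a44, Slc25a47 and Slc25a53. The sign of Slc25a39 turned in 3 of 6 left-out fits, from -0.0344 (without CD11cloMinclelo replicate 2) to 0.0629, and that of Slc25a47 in 1, from -0.7004 to 0.0726 (without CD11chiMinclehi replicate 1), and the cause was not tested. Each carrier without overlap kept its direction in all settings run. Full separation of the groups fixes that direction in advance, except under quantile normalization and the median shift. Low counts limit the 6 carriers below 10 TPM, whose 95% intervals reached 0.85 to 1.64 on the log2 scale to either side.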
